A study of Homo sapiens with 3 samples.

Results

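The microRNAs described here are hsa-miR-34a-5p, hsa-miR-34b-3p, hsa-miR-34c-3p, hsa-miR-192-5p and hsa-miR-194-5p, which were taken by name as 5 of the 2019 human microRNA entries of the array. MCF12A, a mammary epithelial cell line that is immortalized but forms no tumours, was grown as monolayers in DMEM/F12 with 2.5% horse serum, insulin, hydrocortisone, cholera toxin and epidermal growth factor. There were 3 groups with 1 array each: cells kept in acetaldehyde for 4 weeks, cells kept in ethanol for 4 weeks, and control cells with no exposure. The acetaldehyde dose was labelled 1 mM in one field and 1% in another, and the ethanol dose 2.5 mM and 2.5%, so the doses are not settled. The protocol also mentioned a clone selected in soft agar, which no array label names. No group had a replicate, and no p-value was computed. Each error below is an SD over the spots of a probe, 4 per array, and measures the spread between spots, not between cultures.

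Transcription of the miR-34 genes is induced after DNA damage. The mature miR-34 family represses transcripts for cell cycle and survival proteins such as CDK6, MET and BCL2. In gut, liver and kidney epithelium miR-192, miR-194 and miR-215 are known as targets of hepatocyte nuclear factors. Acetaldehyde is the first oxidation product of ethanol and forms adducts with DNA.

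The mature sequences on the array are shown with the seed, bases 2 to 8, in capitals, since microRNAs with the same seed share predicted targets and probes for near-identical sequences can read each other. The 5 members come first, followed by opposite hairpin arms and relatives with which they are compared below.
miR-34a-5p: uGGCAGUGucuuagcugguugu
miR-34b-3p: cAAUCACUaacuccacugccau
miR-34c-3p: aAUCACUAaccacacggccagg
miR-192-5p: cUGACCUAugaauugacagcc
miR-194-5p: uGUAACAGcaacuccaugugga
miR-34a-3p: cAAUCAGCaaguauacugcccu
miR-34b-5p: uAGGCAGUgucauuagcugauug
miR-34c-5p: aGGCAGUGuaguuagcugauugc
miR-215-5p: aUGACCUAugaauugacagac
miR-449a: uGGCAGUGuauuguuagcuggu
All 5 members matched the RefSeq mature sequence (GRCh38.p14) base for base. miR-34a-5p shared its seed with 3 other entries of the array, miR-34c-5p, miR-449a and miR-449b-5p, and miR-192-5p shared its seed with miR-215-5p. No other entry carried the seed of miR-34b-3p, miR-34c-3p or miR-194-5p. miR-34b-3p and miR-34c-3p are thus arms with seeds other than that of miR-34a-5p, and they were 6 edits apart from each other. miR-192-5p and miR-215-5p differed by 2 substitutions, C1A and C20A counted from the 5′ end with the base of miR-192-5p first, so signal shared between their probes cannot be told apart.

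miR-34a-5p lies at chr1:9151735-9151756 on the minus strand of GRCh38.p14, within the long noncoding gene MIR34AHG. miR-34b-3p, at chr11:111512987-111513008, and miR-34c-3p, at chr11:111513484-111513505, lie on the plus strand within the spans of MIR34BHG and BTG4, with 417 bases between their hairpins. miR-192-5p, at chr11:64891203-64891223, and a copy of miR-194-5p, at chr11:64891404-64891425, lie on the minus strand within the long noncoding gene MIR194-2HG, with 108 bases between their hairpins. The other copy of miR-194-5p lies at chr1:220118206-220118227 on the minus strand, within the spans of IARS2 and LOC124904515, as does the MIR215 hairpin. The copies of miR-194-5p give the same mature sequence, so their shares in the signal cannot be told apart.

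An entry counted as detected if its mean spot intensity exceeded the empty-spot median plus 3 SDs and at least 50% of its spots did so. All 5 members were detected in all 3 groups. The empty-spot median was 65.8 with acetaldehyde, 148 with ethanol and 106 in control cells, and 6.43%, 67.8% and 30.0% of microRNA spots lay below it in the same order. The number of entries detected was 1430 with acetaldehyde, 347 with ethanol and 775 in control cells. With a level taken from the dim microRNA probes, a choice made after seeing the data, these numbers were 730, 784 and 734, and all 5 members were again detected in each group. The epithelial and basal mammary markers were detected in each group (5 of 5), with summed normalized intensities of 46932 with acetaldehyde, 37947 with ethanol and 41358 in control cells, and the liver marker miR-122-5p in none. Among the 5 epithelial markers, the acetaldehyde difference from control was 1.11 ± 0.09 for miR-203a and 0.74 ± 0.09 for miR-141-3p (log2, 4 spot positions). It was -0.09 ± 0.10 for miR-200c-3p and -0.29 ± 0.35 for miR-200b-3p. miR-205-5p ranked 1 on all 3 arrays, and quantile normalization gives the top entry of every array the same value. Its difference of 0.00 ± 0.12 was therefore set by that step and is not a measured lack of change. Before background correction its mean spot intensity was 27424 with acetaldehyde and 21707 in control cells. These 2 readings are not corrected for array brightness. The median of all entries before normalization was 0.31 (log2) higher with acetaldehyde than in control cells. Of 5 mesenchyme and fibroblast markers, 4, 2 and 2 were detected, with summed normalized intensities of 828, 913 and 901, and of 5 blood and serum markers 3, 0 and 0, with sums of 562, 527 and 503. The empty-spot level behind these counts was 98.8 with acetaldehyde, 243 with ethanol and 146 in control cells. By the level from the dim probes, the mesenchyme and fibroblast counts were 2, 2 and 2. The blood and serum counts by that level were 1, 0 and 0. The part of these markers in the results was not tested.

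miR-192-5p and miR-194-5p were higher with acetaldehyde than in control cells, by 1.78-fold and 1.98-fold, and the ethanol values lay in between. miR-34a-5p and miR-34b-3p differed by less than 1.2-fold between any exposure and control. miR-34c-3p was lower with ethanol, with the control value 1.47-fold above it. Levels are normalized intensities after background correction and quantile normalization, and differences are on the log2 scale of the same values.

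**Figure D1:**
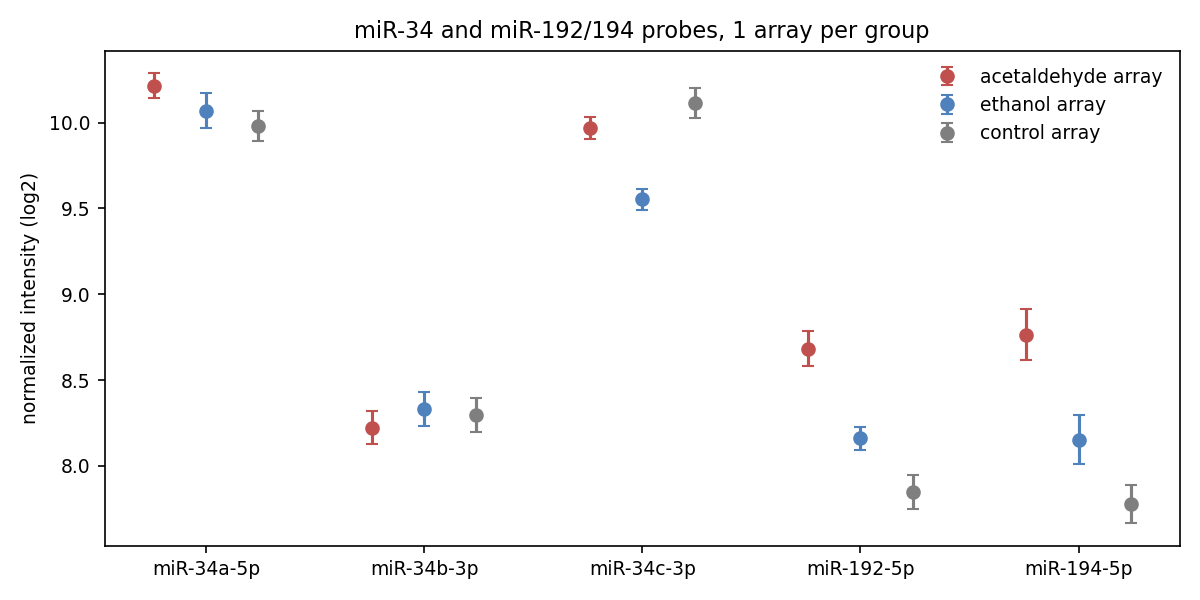
Normalized intensity (log2, vertical axis) of the 5 members on the acetaldehyde, ethanol and control arrays, with means over spots as points and SDs over spots as bars (4 spots, or 3 for miR-34a-5p with ethanol). miR-192-5p stood at 8.68 with acetaldehyde, 8.16 with ethanol and 7.85 in control cells, and the bars of miR-34b-3p overlap in all 3 groups.

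miR-192-5p, which is known to raise CDKN1A (p21), had a normalized intensity of 411 with acetaldehyde, 286 with ethanol and 230.4 in control cells. Before background correction its spots read 440.3, 404, 428 and 479 with acetaldehyde. They read 254, 238, 258 and 263 with ethanol, against 239, 261, 227 and 257 in control cells. The acetaldehyde spots lay above all others, whereas the uncorrected ethanol and control spots overlapped. The difference from control was 0.84 ± 0.14 with acetaldehyde (4 spot positions), and 0.31 ± 0.14 with ethanol, or 1.24-fold. Both were positive at all 4 spot positions.

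miR-194-5p, transcribed together with miR-192 or with miR-215 and abundant in gut and liver epithelium, had a normalized intensity of 435 with acetaldehyde, 285 with ethanol and 219.7 in control cells. Its spots read 433, 406, 465 and 518 with acetaldehyde. They read 285, 232, 236 and 255 with ethanol, against 226, 257, 245 and 219 in control cells. As for miR-192-5p, the acetaldehyde spots overlapped with neither other group, and the uncorrected ethanol and control spots overlapped. The difference from control was 0.99 ± 0.24 with acetaldehyde and 0.37 ± 0.24 with ethanol, or 1.30-fold, both positive at all 4 positions.

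With ethanol both probes stood close to the detection level of 243, with mean spot intensities of 253 for miR-192-5p and 252 for miR-194-5p. The level was exceeded by 3 of 4 spots of miR-192-5p and by 2 of 4 spots of miR-194-5p. The ethanol differences were positive in all 14 other settings tried, between 0.04 and 0.64 for miR-192-5p and between 0.09 and 0.74 for miR-194-5p. In the authors' normalized table they were 0.64 and 0.70.

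The acetaldehyde differences were also positive in all 14 settings, between 0.30 and 1.36 for miR-192-5p and between 0.41 and 1.65 for miR-194-5p. They were at least 1.5-fold in 13 of the 14. The exception was scaling on the spike probes, whose median was 0.64 higher with acetaldehyde than in control cells. That scaling moved the median of all entries detected in both groups to -0.58, and relative to this median miR-192-5p stood at 0.88 and miR-194-5p at 0.99. On the slide, the 282 microRNA spots nearest to each probe had a median acetaldehyde difference of -0.09 around miR-192-5p and -0.03 around miR-194-5p. Among nearby spots of entries detected in both groups, the median was -0.15 (168 spots) around miR-192-5p. Around miR-194-5p it was -0.24 (130 spots).

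The neighbouring microRNAs miR-192-5p and miR-194-5p differed from control in the same direction. The difference of miR-192-5p less that of miR-194-5p was -0.15 ± 0.17 for acetaldehyde against control and -0.06 ± 0.24 for ethanol against control, both within the SD over 4 spot positions. For these SDs the spots of miR-192-5p and miR-194-5p, which lie at separate places on the slide, were paired by their order of block and row. Over the 14 other settings the acetaldehyde gap lay between -0.29 and -0.04, negative in each. The ethanol gap lay between -0.15 and 0.02. A gap within the SD over spots does not show that the amounts were equal. miR-215-5p, which has the seed of miR-192-5p, had a normalized intensity of 258 with acetaldehyde, 209 with ethanol and 204 in control cells. Its acetaldehyde difference was 0.34 ± 0.17, positive at all 4 positions. With ethanol it lay under the level set by the empty spots, and it was detected in all 3 groups by the level from the dim probes. The opposite arms miR-192-3p and miR-194-3p passed the empty-spot level with acetaldehyde alone, where it was 98.8, against 243 with ethanol and 146 in control cells. Normalized intensities with acetaldehyde, ethanol and in control cells were 110.3, 100.4 and 101.3 for miR-192-3p, and 115, 139 and 116 for miR-194-3p. Their acetaldehyde differences, 0.12 ± 0.23 and -0.02 ± 0.36, were within the SD. By the level from the dim probes neither arm was detected in any group.

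miR-34a-5p, the best-known member of its family, had a normalized intensity of 1189 with acetaldehyde, 1074 with ethanol and 1011 in control cells. Its spots read 1077, 1193, 1112 and 1068 with acetaldehyde and, without background correction, 1229, 1172, 1208 and 1344 in control cells. With ethanol the spot at block 1, row 46, column 14 read 337 and was left out, against 997, 1017 and 892 for the others. None of its 8 adjacent spots was dark in this way. Before correction and normalization the control spots were thus brighter than the acetaldehyde spots at 3 of 4 positions.

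The difference of miR-34a-5p from control was 0.23 ± 0.15 with acetaldehyde, or 1.18-fold and positive at all 4 positions. It ran from -0.77 to 0.35 over the other settings and was positive in 12 of 14. The ethanol difference was 0.09 ± 0.21 over 3 spot positions, within its SD, and -0.32 with the dark spot kept. The opposite arm miR-34a-3p had an acetaldehyde difference of 0.26 ± 0.12, positive at all 4 positions.

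miR-34b-3p, from a hairpin transcribed together with that of miR-34c, had a normalized intensity of 299 with acetaldehyde, 323 with ethanol and 315 in control cells. Its spots read 304, 330, 357 and 342 with acetaldehyde, 257, 293, 270 and 292 with ethanol, and 338, 387, 345 and 376 in control cells. The difference from control was -0.08 ± 0.12 with acetaldehyde and 0.04 ± 0.03 with ethanol. The sign of either depended on the setting, with 11 and 9 of 14 settings on the side reported.

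miR-34c-3p, from the neighbouring hairpin, had a normalized intensity of 1001 with acetaldehyde, 751 with ethanol and 1108 in control cells. Its spots read 888, 959, 965 and 984 with acetaldehyde. They read 671, 743, 699 and 709 with ethanol, against 1382, 1395, 1336 and 1226 in control cells. Before background correction and normalization, every ethanol spot lay below every acetaldehyde spot, and every acetaldehyde spot below every control spot. The kept ethanol spots of miR-34a-5p likewise lay below all of its acetaldehyde and control spots. Without normalization, the median ethanol difference over entries detected in both groups was -0.33, so low ethanol readings were not particular to miR-34c-3p. The ethanol difference was -0.56 ± 0.10, negative at all 4 positions and just short of 1.5-fold. Over the 14 other settings it lay between -0.94 and -0.50, past 1.5-fold in 5. The acetaldehyde difference was -0.15 ± 0.14, negative at 3 of 4 positions, and between -1.11 and -0.05 over the other settings.

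Although processed from a shared primary transcript, miR-34c-3p and miR-34b-3p differed by unequal amounts with ethanol. The ethanol difference of miR-34c-3p less that of miR-34b-3p was -0.60 ± 0.09 over 4 spot positions, and between -0.71 and -0.48 over the other settings. For the SDs of these gaps, spots of miR-34c-3p and miR-34b-3p were paired by their order of block and row. For acetaldehyde against control the gap was -0.07 ± 0.16. On the ethanol array miR-34b-3p stood near the detection level of 243, with a mean spot intensity of 278, against 705 for miR-34c-3p. The part of dim signal in the ethanol gap was not tested. The 5p arms had acetaldehyde differences of -0.39 ± 0.12 for miR-34c-5p and -0.21 ± 0.08 for miR-34b-5p, negative at all 4 positions. With ethanol they lay under the level set by the empty spots, at 234 for miR-34c-5p and 187 for miR-34b-5p, against 209 and 168 in control cells. By the level from the dim probes both were detected in all 3 groups. miR-34a-5p and miR-34c-5p share a seed, and their acetaldehyde differences as reported had opposite signs. The sign of miR-34a-5p depended on the setting. Without background correction or normalization both were lower with acetaldehyde than in control cells. Mean spot intensities were 1112 against 1238 for miR-34a-5p and 190 against 223 for miR-34c-5p.

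**Figure D2:**
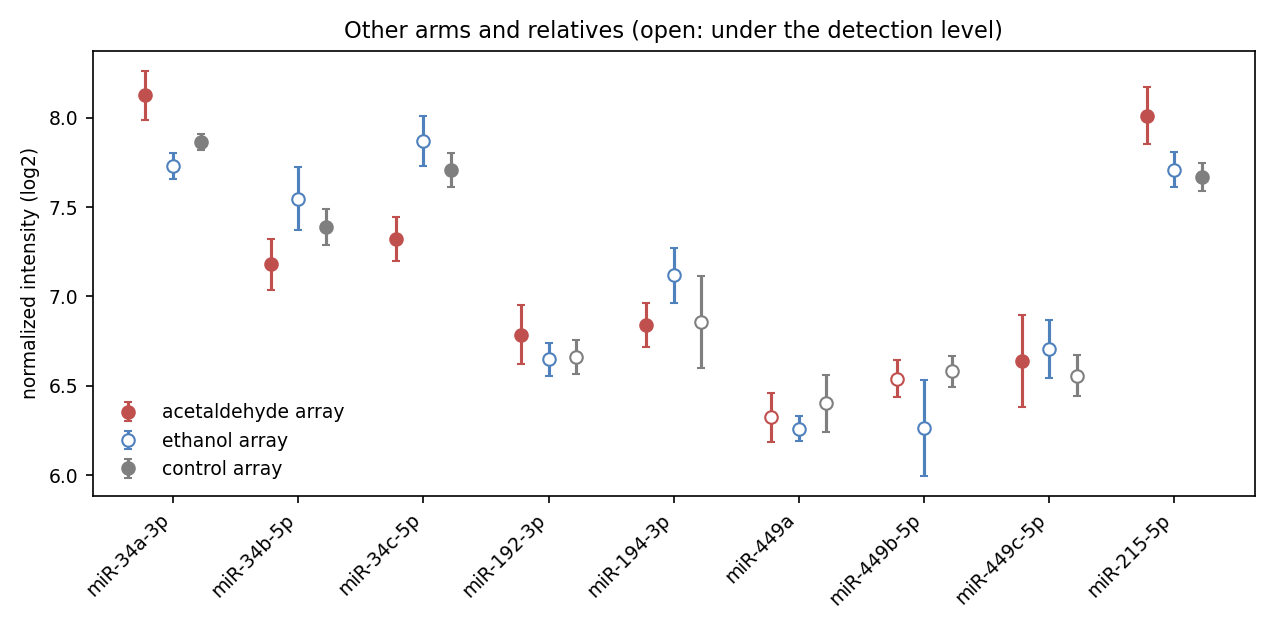
Normalized intensity (log2, vertical axis) of opposite hairpin arms and relatives on the acetaldehyde, ethanol and control arrays, with means as points and SDs over 4 spots as bars; open points lie under the detection level. miR-34c-5p stood at 7.32 with acetaldehyde and 7.71 in control cells, and miR-449a and miR-449b-5p were under the level in all 3 groups.

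Acetaldehyde and ethanol were given at unequal doses, so their values are set side by side without a matched dose. Acetaldehyde minus ethanol was 0.61 ± 0.19 for miR-194-5p, 0.52 ± 0.06 for miR-192-5p and 0.41 ± 0.05 for miR-34c-3p, each positive at all 4 spot positions. It was 0.15 ± 0.08 for miR-34a-5p (3 positions) and -0.11 ± 0.10 for miR-34b-3p. miR-192-5p and miR-194-5p stayed positive in all 14 other settings and miR-34c-3p in 13, with -0.26 under scaling on the spike probes.

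**Figure D3:**
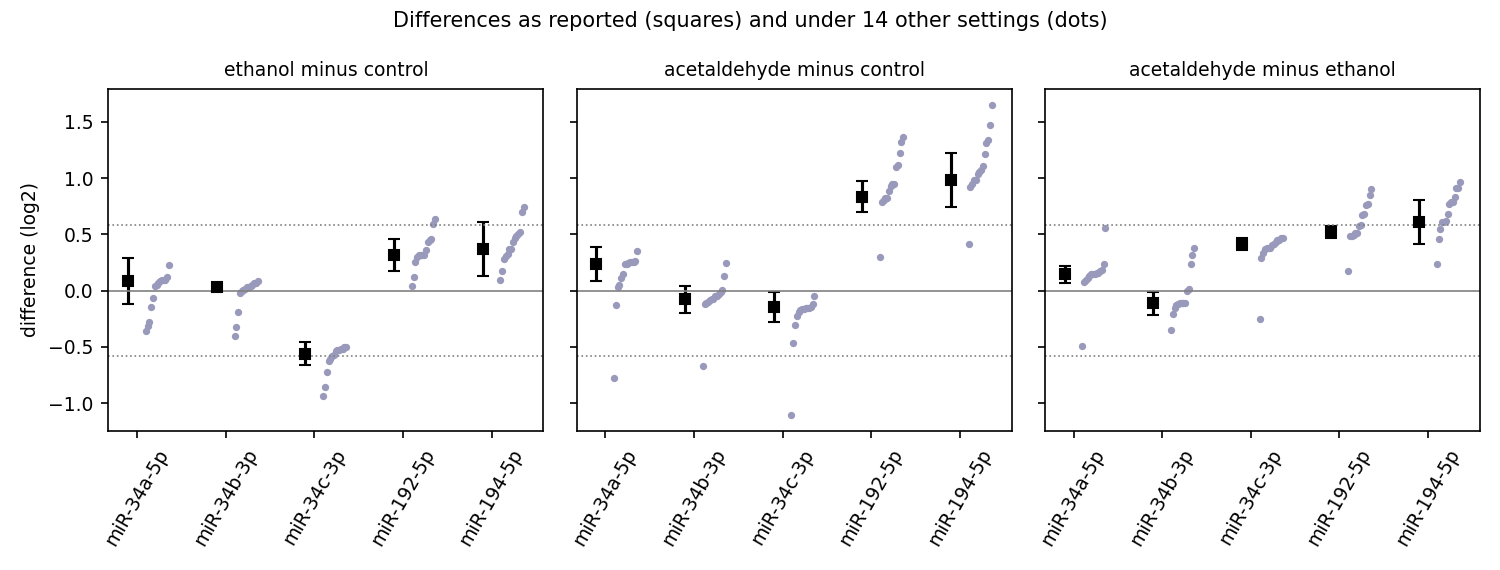
Log2 difference (vertical axis) of each member for the 3 comparisons. Black squares are the reported values with the SD over spot positions, dots are values under 14 other settings, and dotted lines mark 1.5-fold. The acetaldehyde minus control dots of miR-192-5p and miR-194-5p all lie above 0.

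For acetaldehyde against control, 2 of 5 members were at least 1.5-fold higher, where 7.88% of the 774 entries detected in both groups were, and 0 members were that much lower, against 8.14%. At 2-fold the members' counts were 0 and 0, against 0.904% higher and 1.81% lower. This count rested on the setting, since miR-194-5p was at least 2-fold higher in 9 of the 14 other settings and miR-192-5p in 5, and miR-34c-3p was at least 2-fold lower in 1, with scaling on the spike probes. At every spot position 3 members were higher, against 27.9%, and 0 lower, against 37.5%. The median over the members was 0.23, and -0.08 over all 774.

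For ethanol against control, 0 members were past 1.5-fold higher, against 7.49% of 347 entries, and 0 lower, against 2.88%. At 2-fold the counts were 0 and 0, against 0.576% higher and 0.00% lower. At every position 3 members were higher, against 32.0%, and 1 lower, against 31.1%. The median over the members was 0.09, and 0.00 over all 347.

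For acetaldehyde against ethanol, miR-194-5p alone was at least 1.5-fold higher, against 14.1% of 347 entries, and 0 members were lower, against 17.6%. At 2-fold the counts were 0 and 0, against 2.02% higher and 4.03% lower. At every position 4 members were higher, against 32.3%, and 0 lower, against 46.4%. The median over the members was 0.41, and -0.11 over all 347. Both comparisons with control used the same control array.

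**Figure D4:**
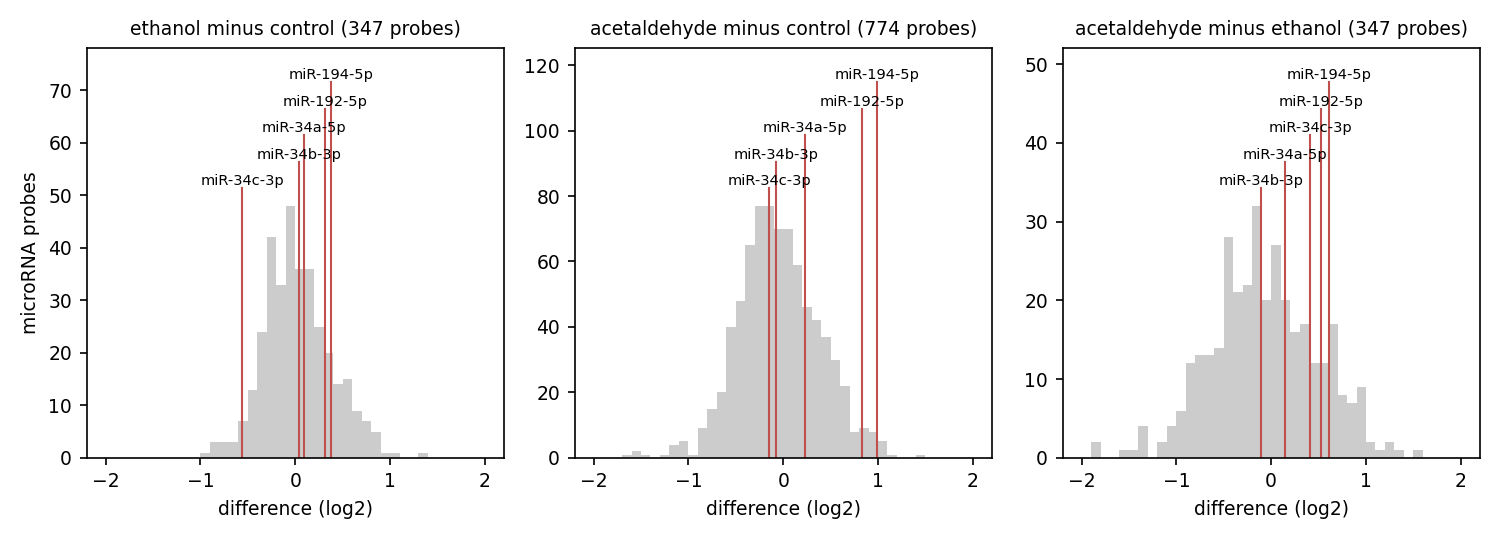
Number of microRNA entries (vertical axis) by log2 difference (horizontal axis) for the 3 comparisons, over entries detected in both groups, with red lines at the members. For acetaldehyde minus control, miR-192-5p at 0.84 and miR-194-5p at 0.99 lie in the upper tail of 774 entries, and the miR-34 members lie near the middle.

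The entries most like each member were taken by Euclidean distance over its ethanol and acetaldehyde differences from control, among 346 others detected on the 3 arrays. For miR-194-5p they were miR-940 (distance 0.067), miR-99a-5p (0.085) and miR-1281 (0.098). For miR-192-5p they were miR-1281 (0.095), miR-940 (0.12) and miR-335-5p (0.13). For miR-34c-3p they were miR-1273g-3p (0.082), miR-4284 (0.10) and miR-4778-5p (0.13). For miR-34a-5p they were miR-29a-5p (0.015), miR-130a-3p (0.043) and miR-205-3p (0.053), and for miR-34b-3p miR-10b-5p (0.022), miR-6126 (0.022) and miR-6127 (0.044).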

How the data were processed

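MicroRNAs were measured by a service provider on 1-colour (Cy5) arrays, 1 per group, from 2 µg of total RNA, per the labels' protocols. The authors deposited a median intensity for every spot, per the file headers; the values still contained background. Their series table held linear intensities that the authors had normalized by a method not given here. The normexp method of limma 3.58.1 (R 4.3.3), with an offset of 50, corrected the background over all spots. Dark spots, under 50% of a probe's median net signal where that exceeded 300, were left out. Spots were averaged on the log2 scale, followed by quantile normalization over 2019 entries. The steps were tested on simulated data in which every array had the control background, and recovery of the set folds was required only of bright entries. That test therefore does not cover dim entries or unequal background between arrays. Python 3.11.15 and pandas 2.3.3 made the tables. A difference was called past 1.5-fold among entries detected in both groups. With 1 array per group no test was possible, and the number of arrays limits the precision. The text named the members, their other arms and relatives, cell type markers and the 3 nearest entries of each member. Further microRNA lists are not reported here. Members and lists were chosen with earlier results of these data known. Alternatives covered spots, background, normalization, detection and fold. The RefSeq reference used here held 13 of 14 named sequences. It had no mature entry named miR-34c-5p, whose sequence is given as on the array.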

Additional observations from a re-analysis of the deposited data

How the results depend on the processing

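Direction held in all 14 other settings for miR-192-5p and miR-194-5p in the 3 comparisons and for miR-34c-3p against control. For miR-34c-3p with acetaldehyde the difference from control was small, -0.15 ± 0.14. Less the median of entries detected in both groups it was -0.07, and negative in 13 of 14 settings. The signs of miR-34a-5p and miR-34b-3p changed with the setting. The count of members at least 1.5-fold higher with ethanol than control, 0 as reported, was 2 net of the empty spots and 2 in the deposited series table. The count lower, 0 as reported, was 1 net of the empty spots, net of the dim microRNA spots (a setting chosen after seeing the data), without normalization, and with scaling on the 5S ribosomal RNA or the spike probes. With acetaldehyde against control, the count higher, 2 as reported, was 0 with scaling on the spike probes and 0 at 2-fold, and the count lower, 0 as reported, was 3 with scaling on the spike probes. With acetaldehyde against ethanol, the count higher, 1 as reported, was 2 net of the empty spots, net of the dim spots, without normalization, scaled on detected probes, scaled on the 5S probes and in the deposited table, and 0 with cyclic loess, scaling on the spike probes, block 1 spots only and at 2-fold. The cause was not tested. With a detection level of 5 SDs, 2 members were detected on the ethanol array, miR-34a-5p and miR-34c-3p. A level from the dim probes, also chosen after seeing the data, changed no count of members. Signal over background limits miR-192-5p and miR-194-5p on the ethanol and control arrays, and miR-34b-3p on the ethanol array. No paired analysis was possible because each group has 1 array.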
